A study of Mus musculus with 16 samples.

Results

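Small nucleolar RNAs (snoRNAs) were read in mouse molar tooth germs with whole-transcript expression arrays, by taking every probe set whose platform symbol field held a symbol starting with Snord, Snora or Scarna. The rule found 101 probe sets. Probe sets with identical values in all samples were counted once, which left 79 distinct rows, out of 35556 rows in the whole table, for 72 snoRNA symbols. They comprised 40 C/D box rows (Snord), 29 H/ACA box rows (Snora), 3 Cajal body rows (Scarna) and 7 rows of the imprinted Snord116 group, which is itself of the C/D type. Snord115 was not analysed here. A row was tested if its signal was above 5 on the log2 scale in at least 1 sample, and 74 of the 79 rows passed: 37 C/D box, 27 H/ACA box, 3 Cajal body and 7 Snord116 rows. The 5 rows that did not pass (Snord1b/Snord1c, both Snord58b rows, Snora19 and Snora36b) never exceeded 4.73 and are described only by that ceiling.

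The samples were mandibular first molar germs of C57Bl6 embryos at E14.5, the cap stage, pooled by 4 germs to obtain enough RNA. There were 8 wild-type (WT) pools and 8 Rsk2-/Y pools, the latter from male embryos that carried on their only X chromosome an Rsk2 (Rps6ka3) allele lacking exon 2, with male littermates as WT. The sample names start with ABH or AZN, with 4 pools of each genotype under each prefix. What the prefixes stand for was not stated, so they are called series here. Nothing in the labels showed that pools were from separate litters, so p-values measure the spread between these pools.

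SnoRNAs are short non-coding RNAs that work with a fixed set of proteins in the nucleolus. C/D box snoRNAs guide 2′-O-methylation of ribosomal and spliceosomal RNA by fibrillarin, and H/ACA box snoRNAs guide the conversion of uridine to pseudouridine by dyskerin, while a few members (Snord14, Snord22, Snord118, Snora73) are needed for the cutting of the ribosomal precursor. Cajal body RNAs (Scarna) guide the same reactions on spliceosomal RNAs. Most vertebrate snoRNAs are cut out of introns of host genes, many of which encode ribosomal proteins or translation factors, and others of which are non-coding RNAs such as Gas5 and the Snhg genes. Snord116 is a cluster of near-identical copies expressed from the paternal allele in the Snhg14 transcript, chiefly in neurons, and its loss is central to Prader-Willi syndrome. The probes read any RNA that contains the sequence, so a mature snoRNA cannot be told apart here from the host intron, and the RNA columns used are made for RNAs longer than most snoRNAs.

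Sequence can also be shared with another short RNA. In 5 members the RefSeq microRNA hairpin overlapped the snoRNA gene, and these hairpins are shown (RefSeq, build GRCm38.p6, 5′ to 3′) because the signal of such a row may come from either product. Capitals mark box motifs of the snoRNA inside the hairpin: UGAUGA, read as box C, in Snord33, where it started at base 7 of the snoRNA, and ACA, the box lying 3 bases before the 3′ end, in Scarna13, Snora19 and Snora36b. The snoRNA was taken to lie on the strand of the hairpin. The first hairpin lies at chr7:45126918-45126991 on the minus strand and shares 28 bases with Snord33.
Mir5121: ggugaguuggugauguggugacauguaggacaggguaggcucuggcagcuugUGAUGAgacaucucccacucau
The second lies at chr12:105031077-105031141 on the minus strand, and all of its 65 bases are within Scarna13.
Mir3069: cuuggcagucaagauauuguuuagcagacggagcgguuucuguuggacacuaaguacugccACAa
The third lies at chr19:60774329-60774397 on the minus strand and holds the whole of Snora19, 56 bases long in RefSeq.
Mir3084-2: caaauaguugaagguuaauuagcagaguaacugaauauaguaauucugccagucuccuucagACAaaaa
The fourth lies at chr15:98519762-98519878 on the minus strand and shares 73 bases with Snora34, without its 3′ end.
Mir1291: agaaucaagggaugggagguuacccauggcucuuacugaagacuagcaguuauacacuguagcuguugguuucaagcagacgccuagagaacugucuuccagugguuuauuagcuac
The last lies at chr1:185242975-185243043 on the plus strand and shares 64 bases with Snora36b.
Mir664: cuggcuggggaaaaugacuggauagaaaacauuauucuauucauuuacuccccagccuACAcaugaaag
The marked ACA was placed from the end of the snoRNA and not by a search of the hairpin. On the given strand only, ACA at any position occurred in 676 of 1005 RefSeq hairpins (67.3%) and UGAUGA in 27 (2.69%). A match of these letters is a description of the sequence. Platform fields were often mixed: 22 of the 79 rows held several symbols, microRNAs included, and 21 were shared with a symbol that is not a snoRNA.

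The median of the mean signals was 7.77 over the 74 tested members, beside 7.96 over all 19979 probe sets tested, with 8.17 in the C/D box, 8.05 in the H/ACA box, 10.8 in the Cajal body and 5.97 in the Snord116 rows. Mean signals above 10 were found in 13 members. The brightest were Snora52 (12.3), Snord104 (11.7), Snord57 (11.4), Scarna13 (11.0) and Snora73a (10.9), and the dimmest were Snord38a (4.55), Snord61 (4.83), Snora41 (5.26), Snora2b (5.34) and Snord73a (5.58). Signals of different probe sets depend on the probes, so this order is one of array signals and not of amounts of RNA. By RefSeq length, the tested C/D box members had a median of 73 bases (45 to 148) and the H/ACA box members a median of 122 bases (61 to 205). The members varied more over the pools than most probe sets: their range over the 16 pools had a median of 1.48 on the log2 scale, beside 0.499 over all probe sets tested, and 18 members ranged over more than 2.

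**Figure D1:**
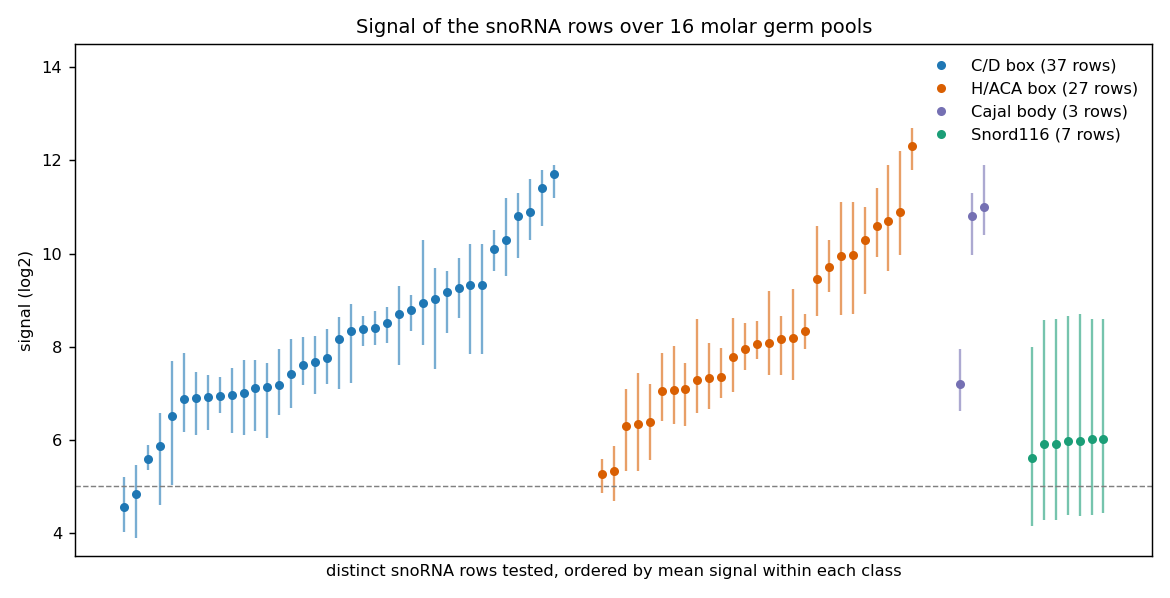
Signal (log2) of the 74 tested snoRNA rows, ordered by mean signal within each class along the horizontal axis; points are means over 16 pools, vertical lines run from the lowest to the highest pool, and the dashed line is the signal minimum of 5. Snora52 stands highest at a mean of 12.3, and the 7 Snord116 rows have the longest lines.

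Before any comparison, 2 of the 16 pools have to be described, because snoRNA signals were low in both. They are the AZN pools whose names carry no number, AZN_MolairesWT and AZN_MolairesMutant. They were set apart after their values were seen, so they are given as a description with no test. Both lay below all 6 numbered AZN pools in 55 of the 74 members (74.3%), beside 7.15% of all probe sets tested, and below all of the other 14 pools in 32 members (43.2%), beside 2.94%. In no member did both lie above all numbered AZN pools, an order seen in 15.1% of all probe sets. The count was 32 of 37 in the C/D box, 21 of 27 in the H/ACA box, 2 of 3 in the Cajal body and 0 of 7 in the Snord116 rows. Outside Snord116, the exceptions were Snord7, Snord33, Snord38a, Snord42b, Snord73a, Scarna13, Snora24, Snora41, Snora52, Snora65 and both Snora3 rows.

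The unnumbered pools differed from the numbered AZN pools by a median of -0.70 over the members, beside 0.031 over all probe sets tested, with -0.70 in C/D box, -0.78 in H/ACA box, -0.79 in Cajal body and -0.21 in Snord116 rows. The difference was below 0 in 72 of the 74 members, and the Snora3 rows, at 0.27 and 0.29, were the ones above 0. Both arrays also had the lowest medians over all probe sets, 6.74 and 6.75, where the others had 6.80 to 6.94. With every array centred on its median, the unnumbered pools still were the lowest of the AZN pools in 48 members (64.9%), beside 2.19% of all probe sets. The largest deficits were those of Snord53 (-1.41), Snord47 (-1.40), Snord34 (-1.31), Snord118 (-1.28) and Snora33 (-1.26).

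Snord34, which lies in the ribosomal protein gene Rpl13a, read 7.51 in AZN_MolairesWT and 7.22 in AZN_MolairesMutant. The 6 numbered AZN pools read 8.41 to 8.92 and the 8 ABH pools 7.96 to 8.62, so both unnumbered pools were below every other pool. Snord47, which lies in the non-coding gene Gas5, read 7.53 and 8.13 in the unnumbered pools and 8.81 to 9.70 in the others. Snord53 read 8.51 and 8.41, below the numbered AZN pools (9.23 to 10.32) but within the ABH pools (8.04 to 8.60). Averaged over the 37 C/D box rows, the unnumbered pools had signals of 7.46 and 7.48, the ABH pools 8.21 ± 0.113 (SD, n = 8) and the numbered AZN pools 8.21 ± 0.125 (SD, n = 6). Over the 27 H/ACA box rows the values were 7.84 and 8.02 in the unnumbered pools, 8.10 ± 0.211 in ABH and 8.59 ± 0.182 in the numbered AZN pools. For the 3 Cajal body rows they were 9.12 and 9.29, 9.54 ± 0.149 and 9.97 ± 0.16.

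**Figure D2:**
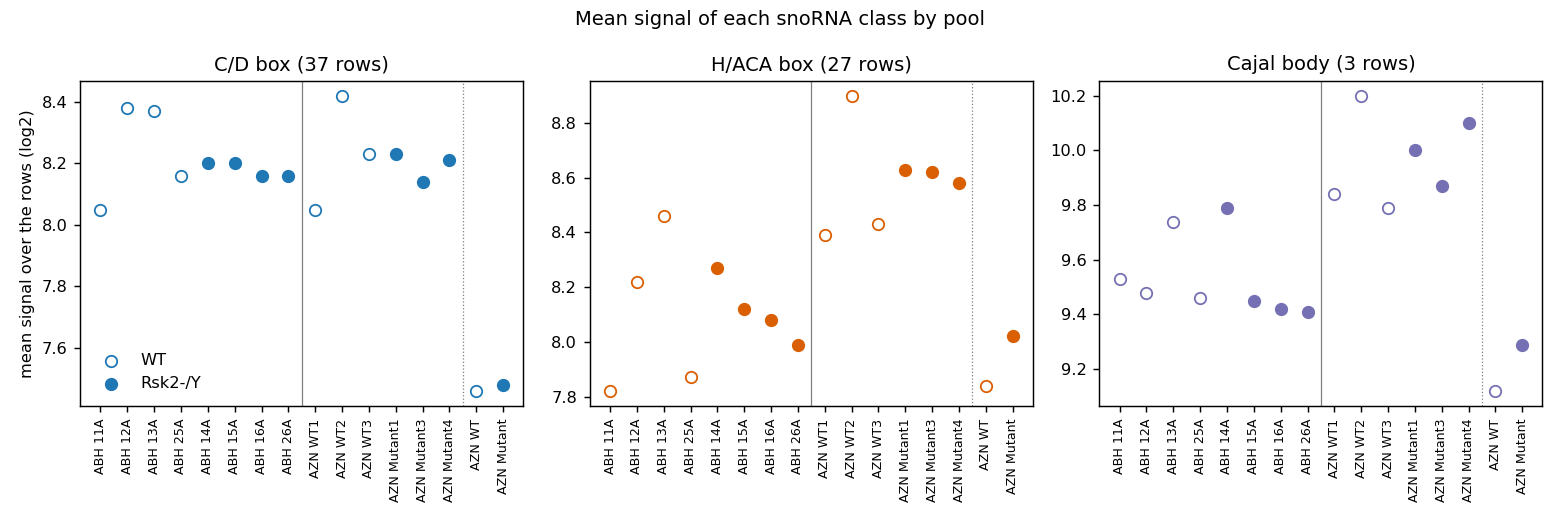
Mean signal (log2) over the rows of each snoRNA class in each of the 16 pools (open circles WT, filled circles Rsk2-/Y); the solid line divides the ABH from the AZN pools and the dotted line sets off the unnumbered AZN pools. The unnumbered pools have the lowest C/D box means (7.46 and 7.48), while the numbered AZN pools lie above most ABH pools in the H/ACA box and above all of them or level with the highest in the Cajal body rows.

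Low signal in the unnumbered pools was shared with other short RNAs. Of 20 rows for other short structural RNAs, such as spliceosomal RNAs, the RNase P RNA Rpph1 and the RNase MRP RNA Rmrp, 18 (90.0%) had both unnumbered pools below the numbered ones, with a median difference of -0.60. Rnu3a, the U3 RNA, which is a C/D box snoRNA that the symbol rule did not take in, read 7.17 and 7.27 against 8.47 to 9.17 in the numbered AZN pools. The count was 110 of 220 microRNA rows (50.0%; median -0.24) and 47 of 196 ribosomal protein rows (24.0%; median -0.071). Over all probe sets tested, the share with both unnumbered pools below the numbered ones was 7.15%, and with both above them 15.1%. These are shares of single probe sets and not of list means. Among the marker lists, the macrophage genes had a mean signal of 7.75 to 8.08 in the unnumbered pools and 7.51 to 7.66 in the numbered ones, the endothelial genes 9.38 to 9.56 against 8.97 to 9.19, and the dental mesenchyme genes 10.60 to 10.68 against 10.01 to 10.56, while the other marker lists overlapped. The part of RNA recovery or of cell content in the low signals was not tested. In bulk samples such as these, fewer cells of a type and less RNA per cell cannot be told apart.

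Rsk2 itself checked the labels poorly. Rps6ka3 read 9.61 to 10.22 (median 10.04) in the WT pools and 9.74 to 10.40 (median 10.06) in the Rsk2-/Y pools, and the groups overlapped. Its probe set spans the whole transcript and only exon 2 is removed, so the signal says little on the deletion.

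The first comparison asked whether snoRNA levels differed between Rsk2-/Y and WT molar germs. No member did so by the thresholds of the study (limma, Benjamini-Hochberg adjusted p below 0.1 over all probe sets tested and a fold change above 1.2): 0 of 74 members were called, and 0.0% of all probe sets. The study itself, with other software at these thresholds, reported genes that differed between the genotypes, which the fits here did not call. The differences were evenly split, with 37 members above and 37 below 0, and their median was -0.013, beside -0.014 over all probe sets. No member reached an unadjusted p of 0.05, against 231 higher and 558 lower probe sets in all, and every adjusted p of the members was 1.0. With the series as a block, Scarna17 was the 1 member that passed that level in limma (unadjusted 0.0495, adjusted p = 0.733), beside 408 higher and 947 lower probe sets in all. Again 0 members were called. By class, the median was -0.049 in C/D box (18 above and 19 below 0), 0.056 in H/ACA box (17 and 10) and -0.78 in Snord116 rows (0 and 7). Averaged over the C/D box rows, the 8 WT pools had a signal of 8.14 ± 0.312 and the 8 Rsk2-/Y pools one of 8.10 ± 0.252 (SD), and over the H/ACA box rows 8.24 ± 0.38 and 8.29 ± 0.277.

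Outside Snord116, whose 7 rows differed by -0.84 to -0.70 and are described with that group, the members with the widest differences stood within the spread of the pools. Scarna17, a guide of the Cajal body, read 10.1 to 11.3 (median 11.1) in WT and 9.96 to 10.9 (median 10.7) in Rsk2-/Y pools. The groups overlapped, and the difference was -0.33 (SE 0.17, limma unadjusted p = 0.063). Snora75, which lies in the nucleolin gene Ncl, read 5.63 to 6.87 (median 6.28) in WT and 5.34 to 7.44 (median 6.53) in Rsk2-/Y pools, a difference of 0.27 (SE 0.23). After these, again outside Snord116, came Snora3 (0.25) and Scarna13 (0.24) on the higher side and Snord57 (-0.24) on the lower side.

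Within the series the genotype differences were of either sign. In the 8 ABH pools, 0 of 74 members were called (0.015% of all probe sets). At an unadjusted limma p below 0.05 there were 3 higher and 5 lower members, beside 875 higher and 1709 lower of all 19979 probe sets. Snora75 differed by 0.67 (limma adjusted p = 0.232), Snora2b by 0.36 (0.223) and Snora20 by 0.34, and Scarna17 by -0.42 (0.223), Snord35a by -0.41 and Snora62 by -0.33. In the 8 AZN pools, 0 of 74 were called (0.0%), and the members with an unadjusted p below 0.05 were the 7 near-identical Snord116 rows, all lower. Over all probe sets in the AZN pools, 274 were higher and 303 lower at that level. Scarna13 differed there by 0.44, Snord47 by 0.40 and Snora44 by 0.38. The sign was the same in both series in 39 of 74 members. Tested directly, the genotype difference did not differ between the series in any member (0 called; 0.0% of all probe sets; lowest adjusted p 0.804), the widest gaps being those of Snord116 (-1.37, SE 0.88), Snora75 (-0.81, SE 0.41) and Snora44 (0.63, SE 0.32).

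Over all 16 pools, the series themselves differed in many members, mostly in opposite directions for the C/D box and H/ACA box rows. The C/D box direction faded without the unnumbered pools, as given below, and the difference between the classes was not tested. In AZN minus ABH, with genotype as a block, 21 of 74 members were higher (28.4%), beside 6.23% of all probe sets, and 15 were lower (20.3%), beside 10.3%. Of the 21, 7 were the near-identical Snord116 rows. C/D box rows were mostly lower, with 4 called higher, 12 called lower and a median of -0.24 (9 above and 28 below 0). H/ACA box rows were mostly higher, with 8 called higher, 3 called lower and a median of 0.19 (22 above and 5 below 0). The Cajal body RNAs Scarna13 (0.54, adjusted p = 0.0208) and Scarna8 (0.46, adjusted p = 0.053) were called higher and Scarna17 (-0.27) was not called. The median over all probe sets was 0.018.

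These counts, and the direction of the C/D box rows, rested in part on the unnumbered pools. Without them, 35 members were higher (6.91% of all probe sets) and 9 lower (12.6%). The H/ACA box rows then had 18 higher, 2 lower and a median of 0.40, whereas the C/D box rows had 8 higher, 7 lower and a median of -0.06, with 17 above and 20 below 0. Read in the WT pools alone, 14 members were higher and 10 lower (13.8% of all probe sets in either direction), and in the Rsk2-/Y pools alone 12 and 11 (19.1%). Of the 14 higher in WT, 7 were the near-identical Snord116 rows. Both genotypes shared 14 called rows, which is 14 of 24 in WT and 14 of 23 in Rsk2-/Y, and the sign was the same in all 14. The shared rows included both Snora3 rows and both Snord14c/Snord14d rows, which are near copies, so the rows are not separate members throughout. Over all probe sets tested, 1793 were called in both genotypes, 65.0% of those called in WT and 46.9% of those in Rsk2-/Y, with the same sign in 1792. Signals of some cell type markers also differed between the series, where 6.23% of all probe sets were called higher in AZN and 10.3% lower. Of 15 skeletal muscle markers 6 were higher in AZN and none lower (list mean 7.54 to 9.68 in ABH and 8.10 to 10.1 in AZN), of 5 erythroid markers 3 were higher (8.73 to 10.01 and 9.49 to 10.38), and of 11 dental epithelium markers 1 was higher and 5 lower (10.39 to 10.91 and 9.89 to 10.75). The dental mesenchyme genes had 2 of 7 lower (10.39 to 10.72 and 10.01 to 10.68). Of 12 neuron genes 2 were higher and 1 lower, and of 5 endothelial genes 1 was higher and 1 lower. Of 4 glial genes 1 was higher, as was 1 of 6 macrophage genes. List means overlapped between the series, and the part of cell content in the snoRNA differences was not tested.

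**Figure D3:**
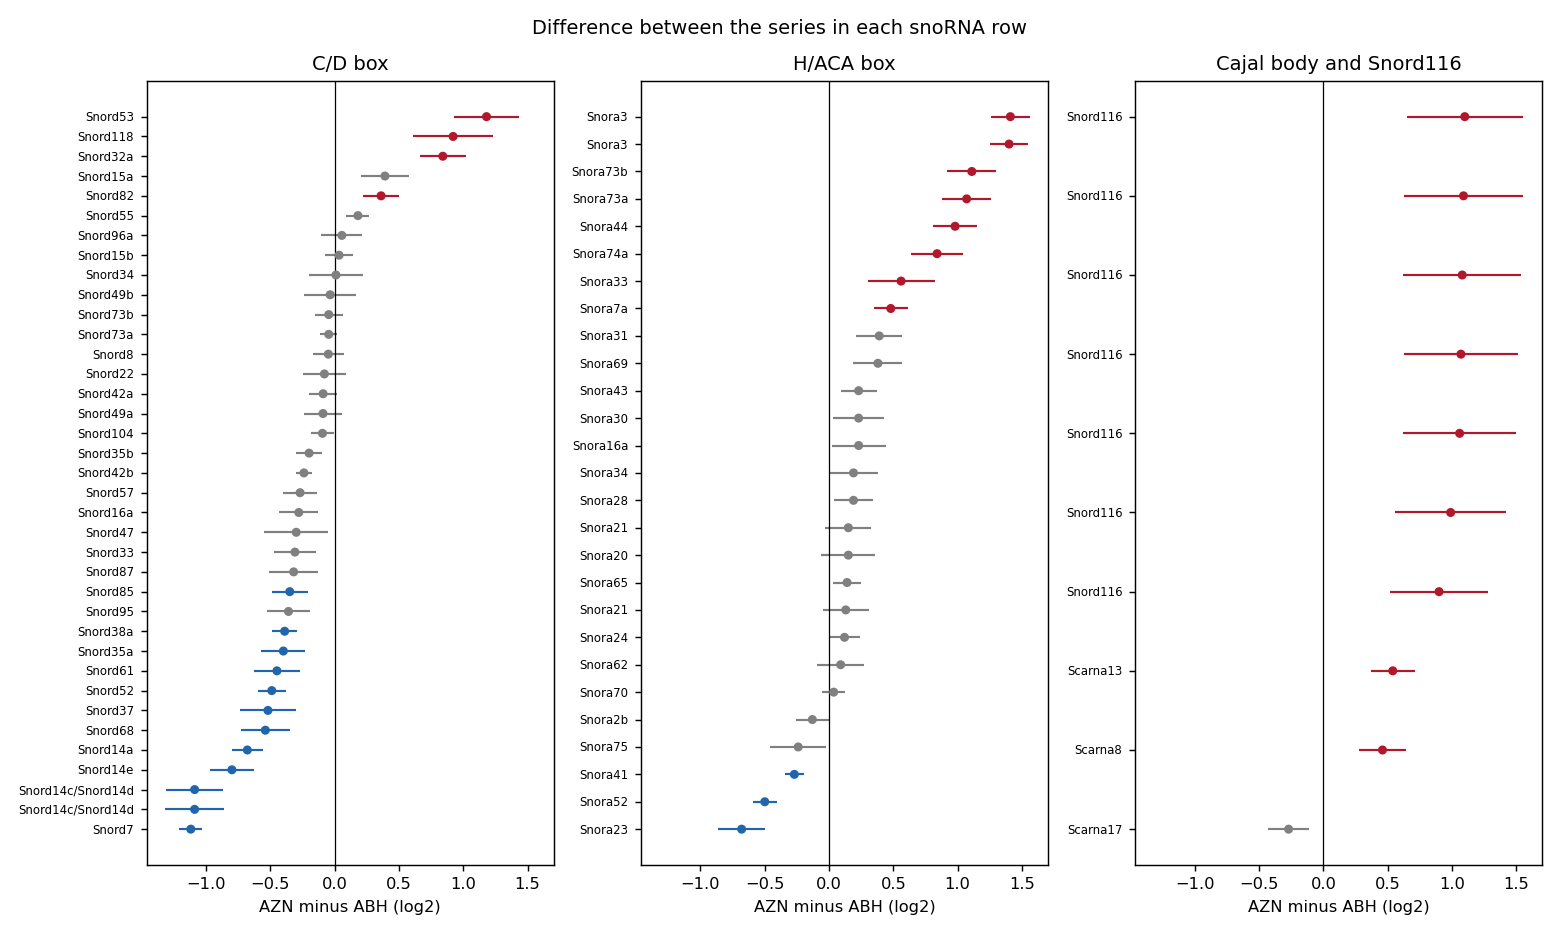
Difference between AZN and ABH pools (log2, limma with genotype as a block; 8 pools per series) for each of the 74 tested rows by class; points are estimates, bars are 1 standard error, red rows were called higher, blue rows lower and grey rows neither. With the unnumbered pools included, C/D box rows lie mostly to the left of 0 (28 of 37) and H/ACA box rows mostly to the right (22 of 27).

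Among snoRNAs needed to cut the ribosomal precursor, members moved in opposite directions. Snora73a (U17) read 9.97 to 11.0 (median 10.3) in ABH and 10.7 to 12.2 (median 11.5) in AZN, with slight overlap, a difference of 1.07 (SE 0.19, adjusted p = 0.000343). Snora73b, its near copy in the same host Snhg3, differed by 1.11 (SE 0.19, adjusted p = 0.000288). Snord118 (U8), required for the large subunit RNAs, read 5.04 to 7.52 (median 5.96) in ABH and 5.89 to 7.70 (median 7.21) in AZN, and rose by 0.92 (SE 0.31, adjusted p = 0.0252). Its higher ABH value was that of ABH_13A, while the other ABH pools stayed at or below 6.22.

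The Snord14 group (U14), required for the small subunit RNA, was lower in AZN in every row. Snord14a read 7.13 to 7.46 in ABH and 6.10 to 7.05 in AZN and did not overlap between the series (difference -0.68, SE 0.12, adjusted p = 0.000315). The rows of Snord14c and Snord14d, which had nearly the same values, read 9.52 to 10.2 in ABH and 7.84 to 9.66 in AZN (-1.09, adjusted p = 0.00125 and 0.00123), and Snord14e differed by -0.80 (adjusted p = 0.00171). Snord22 (U22) differed by -0.081 and was not called. Rnu3a (U3) was 1.15 higher in AZN (adjusted p = 0.00229), reading 6.72 to 7.96 in ABH.

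Of the modification guides, Snora3 and Snord7 differed without overlap between the series. Snora3 read 8.69 to 9.82 (median 9.29) in ABH and 10.1 to 11.1 (median 10.7) in AZN. All AZN pools were higher than all ABH pools, by 1.41 on average (SE 0.15, adjusted p = 3.74e-06), and its second row by 1.40. Snord7 read 7.46 to 7.72 (median 7.55) in ABH and 6.10 to 6.89 (median 6.39) in AZN, again without overlap, a difference of -1.12 (SE 0.089, adjusted p = 3.45e-07). Of the 74 members, the series did not overlap in 2 rows that were higher in AZN, beside 3.56% of all probe sets. Both were rows of Snora3 with nearly the same values. In 2 rows that were lower, Snord7 and Snord14a, they did not overlap either, beside 5.5%. Neither count stood above its share over all probe sets. In both Snora3 and Snord7 the unnumbered pools stood among the numbered AZN pools or at their edge: Snora3 read 10.60 and 11.11 there and Snord7 6.42 and 6.10.

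The other guides with higher signal in AZN included Snord53 (1.18, adjusted p = 0.00131), Snora44 (0.98, adjusted p = 0.00034), Snora74a (0.84), Snord32a (0.84, adjusted p = 0.00164), Snora33 (0.56), Snora7a (0.48) and Snord82 (0.36). Those with lower signal included Snora23 (-0.68, adjusted p = 0.00642), Snord68 (-0.54, adjusted p = 0.0355), Snord37 (-0.52), Snora52 (-0.50, adjusted p = 0.000695), Snord52 (-0.49, adjusted p = 0.00174), Snord35a (-0.40), Snord85 (-0.35) and Snora41 (-0.27, adjusted p = 0.00738). Snord61 and Snord38a were also called lower, but near the signal minimum: Snord38a was above 5 in 1 pool, an ABH pool, and Snord61 in 5 ABH and 2 AZN pools. With a signal above 5 required in at least 8 samples, 21 members were higher and 13 lower. Snora52, the brightest member, read 12.3 to 12.7 in ABH and 11.8 to 12.5 in AZN. Over the 67 members outside Snord116, the difference between the series correlated with RefSeq length (Spearman 0.49), but within the classes it hardly did (0.15 over 37 C/D box rows and 0.06 over 27 H/ACA box rows). These are descriptions across rows, which share pools and hosts and are not replicates.

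The other short structural RNAs were higher in AZN in 16 of 20 rows and lower in none, with a median difference of 0.67 and the same sign as in the H/ACA box rows. MicroRNA rows had 11 higher (5.0%) and 42 lower (19.1%) of 220, and ribosomal protein rows 32 higher (16.3%) and 1 lower (0.51%) of 196. Over all probe sets tested, 6.23% were called higher and 10.3% lower.

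Host genes were set beside the snoRNAs within them, since an intronic snoRNA and its host are made from 1 transcript. By RefSeq gene spans, 78 of the 79 rows lay within 1 gene, strand not being given in the span table, and Snord118 lay in none. The host had a tested row for 50 members, in 32 host genes, 16 of which encode ribosomal proteins. That row was the host's own for 37 members and was shared with other symbols for 13. Where a host had several probe sets, the brightest was read. In AZN minus ABH, the member moved further than its host in 37 of 50 rows and in the same direction in 23. The members had a median of 0.11 and the hosts one of 0.012, and 26 of 50 members (52.0%) were called beside 8 of 32 host genes and 16.6% of all probe sets in either direction. Of these rows 7 were those of Snord116, which share the Snhg14/Ube3a row. Without them 43 rows in 31 hosts were left, where the member moved further in 30 and in the same direction in 23, 19 members and 7 host genes were called, and the medians were 0.01 and 0.04. By class, the medians were -0.27 for C/D box members and 0.089 for their hosts, and 0.15 for H/ACA box members and 0.049 for theirs.

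Snora3 differed by 1.41 and its host Rpl27a by 0.17. Snord53 differed by 1.18 and its host Wdr43 by 0.14. Snord14c and Snord14d differed by -1.09 and Hspa8, the constitutive heat shock protein gene that holds them, by -0.18, with -0.31 and -0.19 in its other 2 rows.
Different snoRNAs of the same host also moved apart: in Rpl13a, whose row, shared with other symbols, differed by 0.18, Snord32a differed by 0.84, Snord34 by 0.009, Snord33 by -0.31 and Snord35a by -0.40, and in Ncl (0.012) Snord82 differed by 0.36 and Snora75 by -0.24. In other pairs the host moved further: Snora52 and its host Rplp2 were both lower (-0.50 and -0.63), as were Snord61 and Rbmx (-0.45 and -0.63). The Rplp2 row had a mean signal of 7.07, where the other ribosomal protein hosts had 8.09 to 13.0. Across rows, the differences of member and host had a Spearman rho of 0.59 over 22 C/D box rows and 0.15 over 20 H/ACA box rows. These rows share hosts and pools and are not replicates.

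In the unnumbered pools the members likewise moved further than most hosts. The median difference from the numbered AZN pools was -0.66 over the 50 members and -0.074 over their hosts, beside 0.031 over all probe sets tested. The member moved further in 48 of 50 rows and in the same direction as its host in 32. The host moved further only for Snora65 (-0.43, with -0.65 for Rpl12) and Snord73a (-0.14, with -0.32 for Rps3a1). In Gas5 host and member were both low. Its row read 9.04 and 9.39 in the unnumbered pools, 10.03 to 10.55 in the numbered AZN pools and 9.95 to 10.52 in ABH, a difference of -1.15, beside -1.40 for Snord47 within it. The 3 other rows named Gas5 differed by -0.49, -1.15 and -1.56.

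**Figure D4:**
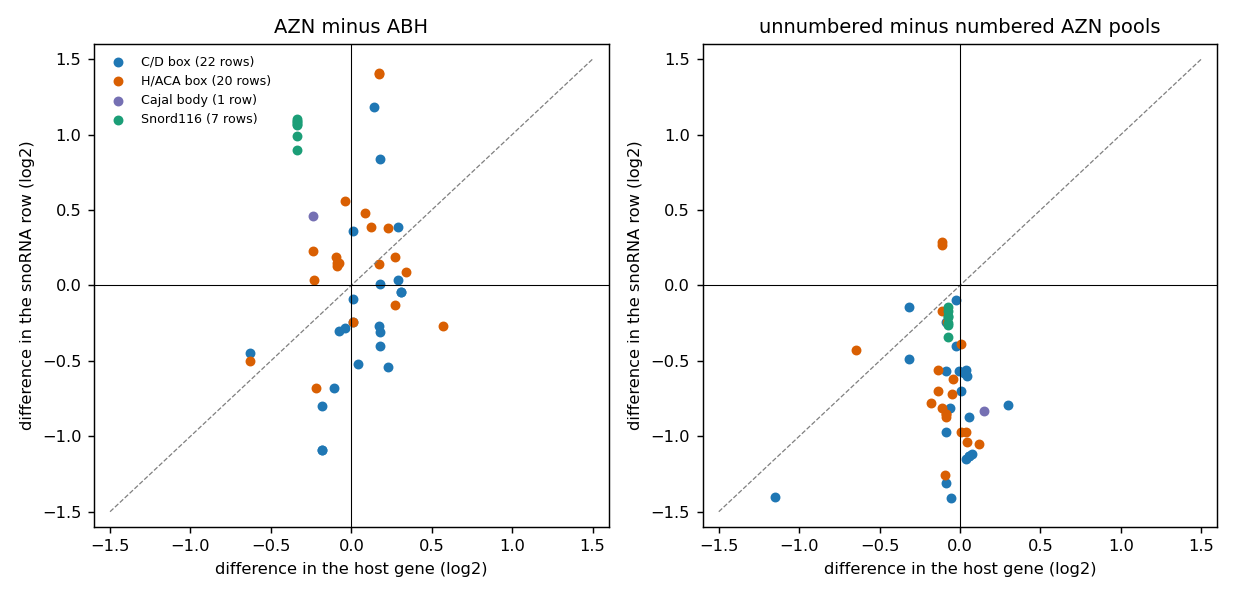
Difference in each snoRNA row against the difference in its host gene (log2), for AZN minus ABH pools (left) and for the unnumbered minus the numbered AZN pools (right); each point is 1 of 50 rows, coloured by class, and the dashed line marks equal differences. On the right most points lie well below the line, with a median of -0.66 for the snoRNA rows and -0.074 for the hosts.

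The proteins that carry snoRNAs showed no genotype call in any list. For the series, 6.23% of all probe sets tested were called higher in AZN and 10.3% lower, and no list was tested against these shares. None of the 4 C/D core proteins (Fbl, Nop56, Nop58, Nhp2l1) was called. Of the 4 H/ACA core proteins, Nhp2 (0.46, adjusted p = 0.000327) and Nop10 (0.40, adjusted p = 4e-05) were higher in AZN, while Dkc1, the pseudouridine synthase, was lower (-0.41, adjusted p = 0.00057). Of 10 assembly factors, Shq1, a chaperone of dyskerin, was lower (-0.32, adjusted p = 0.00397), and of 4 processing factors, the cap hypermethylase Tgs1 (-0.43, adjusted p = 7.7e-05) and the exosome nuclease Dis3 (-0.43, adjusted p = 0.000126) were lower. The mean of the 4 processing genes read 9.76 to 9.99 in ABH and 9.55 to 9.73 in AZN, without overlap. Means of the other snoRNA protein lists overlapped. Of all single probe sets, 5.5% had every AZN pool below every ABH pool. None of the 3 Cajal body genes (Coil, Wrap53, Smn1) was called, nor was the U3 protein Rrp9 (0.24). Among the non-coding hosts of the list, 6 of 15 had a row, and 0 of them were called in either comparison.

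Snord116 set itself apart from the other members. Its 24 probe sets reduced to 7 distinct rows, with pairwise correlations of at least 0.992 over the pools, so they amount to a single measurement repeated. In the row shared by 18 probe sets, the WT pools read 5.40 in ABH_11A, 4.98 in ABH_12A, 4.99 in ABH_13A, 6.51 in ABH_25A, 8.59 in AZN_MolairesWT1, 7.78 in AZN_MolairesWT2, 6.44 in AZN_MolairesWT3 and 5.94 in AZN_MolairesWT. The Rsk2-/Y pools read 4.68 in ABH_14A, 5.02 in ABH_15A, 4.28 in ABH_16A, 7.21 in ABH_26A, 5.48 in AZN_MolairesMutant1, 5.24 in AZN_MolairesMutant3, 5.46 in AZN_MolairesMutant4 and 6.76 in AZN_MolairesMutant. High and low pools occurred in both genotypes and both series, and the signal was above 5 in 12 of 16 pools.

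The lowest pools lay below the signal minimum of 5, where signals cannot be read as levels, so the distance from there to 8.59 is no fold change of the RNA. The genotype difference was -0.81 (SE 0.52, limma unadjusted p = 0.133, adjusted p = 1.0), with -0.17 in ABH and -1.45 in AZN, and the difference between those values was not called (adjusted p = 0.833). Leaving out each pool in turn gave -1.05 (without ABH_26A) to -0.49 (without AZN_MolairesWT1, the highest pool). Between the series, Snord116 was called higher in AZN in all 7 rows (0.90 to 1.10, adjusted p = 0.0663 to 0.0783), and in none at an adjusted p below 0.05. In the WT pools alone it was called in all 7 rows (median 1.71) and in the Rsk2-/Y pools alone in none (median 0.41). The Snhg14 row, which is shared with Ube3a, was lower in AZN (-0.34, adjusted p = 4.14e-05).

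Neuron genes were compared with Snord116 across the pools, because neurons are the cells in which it is chiefly known. All 12 markers of the neuron list were tested, with list means of 7.12 to 7.53 in WT and 7.13 to 7.42 in Rsk2-/Y pools, and of 7.12 to 7.41 in ABH and 7.18 to 7.53 in AZN. Over 16 pools, Snord116 followed the list mean with a Pearson r of 0.67 (permutation test p = 0.00464, adjusted over 8 marker lists 0.0371) and a Spearman rho of 0.66 (permutation p = 0.00702, adjusted 0.0562). Without the 2 pools farthest from the median of the list mean, r was 0.53. Within the series it was 0.77 in ABH (exact permutation p = 0.023, adjusted 0.184; rho 0.76) and 0.48 in AZN (exact permutation p = 0.23, adjusted 0.912; rho 0.48), and without the 2 farthest pools 0.66 and 0.09, so in AZN the relation rested on 2 pools. The other 7 lists (muscle, dental epithelium, dental mesenchyme, glia, erythroid cells, endothelium and macrophages) had adjusted permutation p values of 0.64 to 0.889 for r over all pools. For rho these were 0.24 (glia, rho 0.48) to 0.883. Without the 2 farthest pools, the muscle list had an r of 0.51 over all pools, 0.94 in ABH and 0.14 in AZN. The remaining lists had -0.37 to 0.41 over all pools. On this check the neuron list was thus not alone. The probe sets most like Snord116 over the 16 pools, picked by Pearson r after their values were seen, were Stmn3 (0.88), Sh2d1a (0.86), Zic1 (0.86), Tpd52 (0.86) and Ina (0.85).

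**Figure D5:**
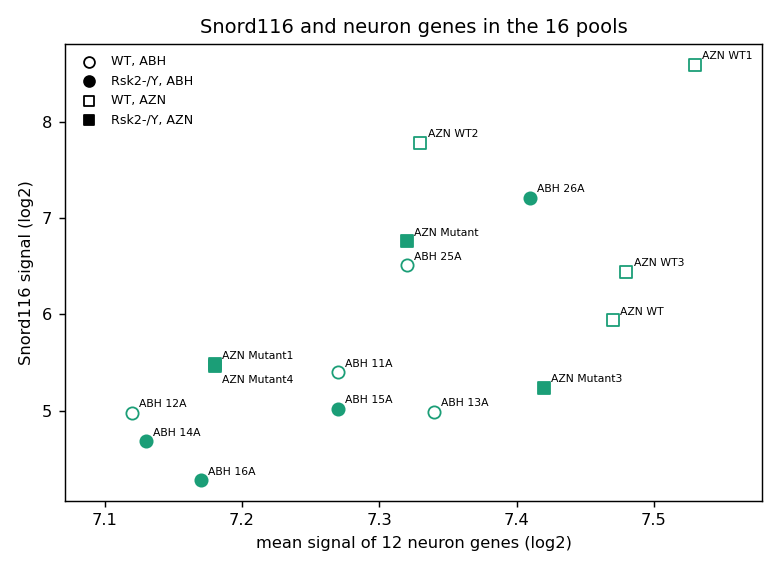
Snord116 signal (log2) against the mean signal of 12 neuron genes (log2) in the 16 pools; circles are ABH, squares AZN, open symbols WT and filled symbols Rsk2-/Y. AZN WT1 lies highest on both axes (8.59 for Snord116 and 7.53 for the neuron genes), and over all pools Pearson r was 0.67.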

How the data were processed

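The authors hybridised 1 Affymetrix Mouse Gene 1.0 ST array per pool and deposited log2 signals, which per the labels came from RMA in Affymetrix Expression Console 1.3.1.187; arrays give no read depth, and the number of pools limits the precision. Probe sets were named through the platform annotation, and snoRNA and hairpin positions through RefSeq tables. Probe sets with a symbol and a signal above 5 in at least 1 of 16 samples (19979) were fitted with limma 3.58.1 (lmFit, eBayes, two-sided) in R 4.3.3, with Benjamini-Hochberg adjustment over all of them. A call needed an adjusted p below 0.1 and a fold change above 1.2 (0.263 on the log2 scale). Class medians and ranks carry no test. Correlations used permutations, exact within a series.

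Named members were the 10 widest called changes per direction (or the 3 widest where none was called), all Snord116 and Scarna rows, snoRNAs that cut the ribosomal precursor, the 5 brightest and dimmest, and those of Gas5, Snhg1 and Rpl13a; of the other lists, the genes called and hosts described. The members and lists were chosen with earlier results of these data known. The fits were checked on simulated data. Alternatives changed the signal minimum, scaling, variance model, samples, covariate and test.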

Additional observations from a re-analysis of the deposited data

Results flagged for a closer look

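Within each genotype, 43 rows named by rule were searched for a single pool far from the other 7 pools, by setting its gap to the nearest pool against the range of the group. Of 86 groups, 6 (6.98%) held such a pool, and by chance a rate near 0.05 is due. AZN_MolairesWT stood low in 3 of them: it read 7.51 for Snord34 where the other WT pools read 8.37 to 8.8, 7.53 for Snord47 against 8.84 to 9.47, and 3.9 for Snord61 against 4.73 to 5.47. AZN_MolairesMutant stood low in 2: it read 6.5 for Snord22 where the other Rsk2-/Y pools read 7.09 to 7.43, and 4.82 for Snora2b against 5.4 to 5.87. ABH_11A read 5.36 for Snord73a, with the other WT pools at 5.56 to 5.69. The 5 low values of the unnumbered AZN pools are of the same direction as their ranks over the other members, and their cause was not tested.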

How the results depend on the processing

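No member was called by genotype, in either series or for the interaction under any alternative tried. For AZN minus ABH, 21 members were higher and 15 lower. The higher count was 13 with trend and robust variance settings, 13 over rows with 1 snoRNA symbol alone, 11 at a false discovery rate below 0.05, 35 without both unnumbered pools, 13 by the methods' t-test and 12 in the Rsk2-/Y pools alone; the lower count was 9 without both unnumbered pools. Leaving out 1 pool at a time gave 11 to 26 higher and 10 to 18 lower, and the higher count dropped by more than 1.5 times without ABH_11A (13), ABH_12A (13), AZN_MolairesWT1 (13), AZN_MolairesWT2 (11) or ABH_16A (12). For 31 named results of AZN minus ABH, 744 of 884 alternative values kept the direction and the call, 140 kept the direction and lost the call, and 0 reversed; all 7 Snord116 rows were among those that lost it. All 273 values of 18 named genotype results stayed uncalled. Ranks of the unnumbered pools with arrays centred, and genotype without AZN_MolairesWT1 and ABH_26A, were chosen after seeing the data. Over the numbers 1 and 3 that both genotypes had in AZN (4 pools), 0 members were called with a replicate block and 0 without it. Deviations of same-numbered pools correlated by -0.049 and 0.0091, and those of the unnumbered pair by 0.604, the highest of the 16 pairs. With 2 same-numbered pairs, whether the numbers pair the pools cannot be decided, and the main fits used no pairing. Signals near background limit what can be said of the 5 dim rows.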

Other observations

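Non-coding host genes of the list with a row, other than Gas5, also had lower signals in the unnumbered AZN pools than in the numbered ones, given as values with no test. The difference was -1.40 for Rian and -0.79 for Meg3, imprinted non-coding genes of the Dlk1 locus, and -0.56 for Mirg of the same locus, whose row is shared with other symbols. It was -0.47 for Snhg5 and -0.054 for Snhg11. In AZN minus ABH none of them was called.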
